A study of Mus musculus with 6 samples.

Results

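The unfolded protein response and the chaperones of the endoplasmic reticulum (ER) were followed across age in alveolar type 2 (AT2) cells, the surfactant-secreting cells of the lung. The 32 genes were chosen by name for their place in this system, not by a limit on their values, and all 32 were found among the 24224 genes of the count table and among the 14899 genes that had enough counts to be tested. They comprise 11 chaperones and their partners, 4 protein disulfide isomerases, 7 genes of ER-associated degradation, 4 sensor genes and 6 genes of the ATF4 branch. The cells were sorted as CD45- CD31- CD326+ MHCII+ from lungs of naturally aged wild-type C57BL/6J mice of 24 months (24 m) and of 3 months (3 m), with no transgene and no treatment other than age. There were 3 libraries per age, described as biological replicates, and each was made from cells pooled over several mice, so the spread between libraries is a spread between pools. The comparison asks how the gene expression of AT2 cells differed between old and young lungs.

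Proteins that enter the secretory pathway are folded in the ER by chaperones such as BiP, the product of *Hspa5*, and by protein disulfide isomerases, and those that fail to fold are moved back to the cytosol and degraded. When unfolded proteins accumulate, 3 membrane sensors signal to the nucleus: IRE1α (*Ern1*) splices the mRNA of the transcription factor *Xbp1*, ATF6 is cut in the Golgi to release a transcription factor, and PERK (*Eif2ak3*) phosphorylates eIF2α, which slows translation in general and allows that of ATF4. AT2 cells fold and secrete large amounts of surfactant proteins, and mutations of surfactant protein C that misfold are known to cause ER stress in them. Splicing, cleavage and phosphorylation do not appear in counts per gene, so the values below are transcript levels only.

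The binding sites of this pathway were searched in the promoters of the 32 genes, since they are the letters through which its transcription factors act on its targets. Promoter windows of 300 bases, of which 250 lie before the transcription start, were taken from RefSeq (GRCm38.p6), and 28 of the 32 genes were matched. *Atf6*, *Hyou1*, *Manf* and *Derl1* were not matched. The ER stress response element (ERSE), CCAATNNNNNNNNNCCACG, was found on either strand in 8 of the 28 genes and in 39 of 32851 promoter windows of the genome (0.119%). ERSE-II, ATTGGNCCACG, was found in 2 of the 28 genes and in 12 windows (0.0365%). The amino acid response element bound by ATF4 (CARE), TGATGNAA, was found in 4 of the 28 genes and in 1304 windows (3.97%). The element TGACGTGG, bound by ATF6 and spliced XBP1, was in no window of the 28 genes and in 222 windows of the genome (0.676%).

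The matches with 20 bases on each side, or fewer at the end of a window, are shown 5′ to 3′ on the strand of the gene, with each match in capitals. A match that reads CGTGG first and ATTGG last is an ERSE on the opposite strand, and 1 that ends in CATCA is a CARE on the opposite strand. They are shown so that the spacing and orientation of the elements can be compared between genes whose levels are given further on.
Hspa5 (chr2:34772005-34772063, + strand): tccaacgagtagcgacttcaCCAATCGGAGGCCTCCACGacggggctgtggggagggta
Hsp90b1 (chr10:86705513-86705676, - strand): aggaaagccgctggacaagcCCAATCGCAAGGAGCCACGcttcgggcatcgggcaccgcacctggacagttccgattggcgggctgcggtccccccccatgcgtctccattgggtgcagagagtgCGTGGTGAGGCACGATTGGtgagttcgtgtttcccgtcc
Calr (chr8:84847055-84847113, - strand): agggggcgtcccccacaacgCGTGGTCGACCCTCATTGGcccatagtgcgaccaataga
Canx (chr11:50325780-50325838, - strand): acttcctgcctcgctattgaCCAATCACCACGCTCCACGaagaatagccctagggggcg
Dnajc3 (chr14:118937807-118937865, + strand): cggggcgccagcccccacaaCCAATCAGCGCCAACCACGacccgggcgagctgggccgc
Creld2 (chr15:88819500-88819558, + strand): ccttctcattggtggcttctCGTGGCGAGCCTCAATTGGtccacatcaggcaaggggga
Pdia6 (chr12:17266471-17266529, + strand): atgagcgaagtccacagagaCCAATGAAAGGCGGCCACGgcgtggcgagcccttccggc
Syvn1 (chr19:6046512-6046570, + strand): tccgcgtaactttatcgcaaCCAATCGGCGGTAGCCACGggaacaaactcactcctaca
Dnajb11 (chr16:22857832-22857882, + strand, ERSE-II): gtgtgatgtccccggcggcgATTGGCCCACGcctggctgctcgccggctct
Herpud1 (chr8:94386297-94386407, + strand, CARE and ERSE-II): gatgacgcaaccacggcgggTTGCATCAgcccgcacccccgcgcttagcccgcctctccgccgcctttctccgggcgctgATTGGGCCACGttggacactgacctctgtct
Trib3 (chr2:152344019-152344066, - strand, CARE): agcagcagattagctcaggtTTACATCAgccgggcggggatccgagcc
Chac1 (chr2:119351029-119351076, + strand, CARE): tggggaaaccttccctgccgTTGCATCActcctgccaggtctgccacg
Asns (chr6:7693205-7693252, - strand, CARE): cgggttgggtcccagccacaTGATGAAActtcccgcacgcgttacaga

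*Hsp90b1* was the gene with 2 ERSE matches, 1 on each strand. All 9 ERSE matches lay before the start, the nearest beginning 44 bases before it in *Syvn1* and the farthest 212 bases before it in *Hsp90b1*. A match is a stretch of letters and was not tested for binding.

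**Figure D1:**
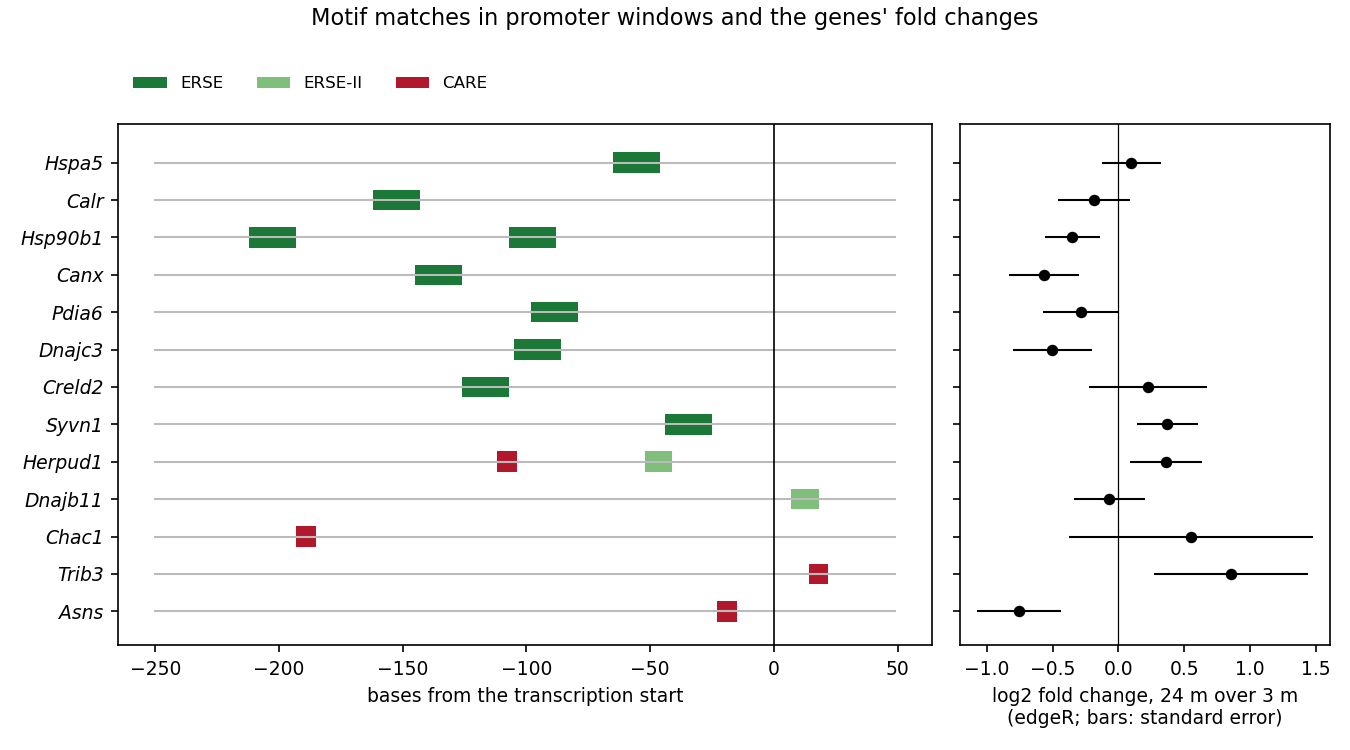
Motif matches in the promoter windows (left; x axis: bases from the transcription start, grey line: the 300-base window) and the log2 fold change of the same genes, 24 m over 3 m (right; points: edgeR estimate, bars: standard error). The 10 genes with an ERSE or ERSE-II lie between -0.56 and 0.37, on both sides of 0.

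Libraries held 28827930 to 32394985 counts at 24 m and 30108093 to 30840965 counts at 3 m, and the 32 genes took 0.605% to 0.675% of the counts at 24 m and 0.607% to 0.677% at 3 m. The AT2 markers *Sftpc*, *Sftpb*, *Sftpa1* and 7 others had counts in every library, and 8 of these 10 had estimates below 0 at 24 m. For 4 of the 10 every 24 m library lay below every 3 m library, beside 5.41% of all tested genes. The summed level of the 10 was 155428 to 163863 CPM (counts per 1000000 of the TMM-normalized library total) in 24 m cells and 138919 to 228449 CPM in 3 m cells. 3 m replicate 2 stood apart: it had counts in 13430 genes, against 16356 and 17645 in the other 3 m libraries, 5.62% of its counts were mitochondrial, against 2.73% and 2.29%, and it was the lowest library for 41.5% and the highest for 30.8% of all tested genes. Results that rest on it are therefore given with and without it. Most tested markers of other cells had estimates above 0 at 24 m, and the part of these and of the AT2 markers in the results was not tested. The summed level of 10 plasma cell markers was 46.5 to 247 CPM at 24 m and 4.02 to 4.85 CPM in 3 m cells. Of these markers 6 of the 9 tested had every 24 m library above every 3 m library, beside 9.74% of all tested genes. *Ighg2b*, *Ighg2c* and *Irf4* were at 0 in all 3 m libraries. Of 11 leukocyte markers 5 were at 0 in all 3 m libraries, and *Ptprc*, which encodes CD45, was at 2.38 to 9.59 CPM in 24 m cells and 0 to 0.190 CPM in 3 m cells. The 11 summed to 262 to 446 CPM in 24 m cells and 267 to 326 CPM in 3 m cells, so in sum the ages overlapped. *Lcp1* alone was at 252 to 344 CPM in 24 m cells and 263 to 326 CPM in 3 m cells. All 10 leukocyte markers tested had estimates above 0, with a median log2 fold change of 7.62. For 7 of the 10 every 24 m library lay above every 3 m library, beside 9.74% of all tested genes. DESeq2 called 6 of them higher. Of 6 airway secretory markers 4 had every 24 m library above every 3 m library, beside the same 9.74%. DESeq2 called 4 of the 6 higher, beside 1.63% of the genes to which it gave an adjusted p. The 6 summed to 630 to 1257 CPM in 24 m cells and 275 to 745 CPM in 3 m cells. Of the 9 plasma cell markers tested 8 had estimates above 0, with a median log2 fold change of 7.10. *Mzb1* and *Derl3* of that list, which encode ER proteins, had means of 0.984 and 2.38 CPM in 24 m cells and of 0.567 and 2.46 CPM in 3 m cells. In bulk RNA, fewer cells of a type and less RNA per cell cannot be told apart.

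None of the 32 genes passed edgeR's quasi-likelihood test between the ages at an adjusted p under 0.05 and a fold above 2. This was so of all genes: the test called 0 of 14899 (0.0%) higher and 0 (0.0%) lower at 24 m. At an unadjusted p under 0.05, 1 of the 32 was higher, *Ppp1r15a*, and 1 was lower, *Asns*, against 3.56% and 2.3% of all tested genes. DESeq2 called 1.63% of the genes to which it gave an adjusted p higher and 0.16% lower, and none of the 32 in either direction, while limma-voom called no gene at all.

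By role, the medians of the estimates lay on both sides of 0, a difference between roles that was not tested. The median log2 fold change, 24 m over 3 m, was -0.16 for the 11 chaperones, -0.30 for the 4 disulfide isomerases, -0.14 for the 7 degradation genes, -0.13 for the 4 sensor genes and 0.85 for the 6 genes of the ATF4 branch, beside 0.05 for all tested genes. Without 3 m replicate 2 the medians were -0.17 for the chaperones, -0.39 for the isomerases and 0.40 for the ATF4 branch, and those of the degradation and sensor genes turned to 0.10 and 0.01. Every 24 m library lay above every 3 m library for 3 of the 32 genes, or 9.38%, beside 9.74% of all tested genes. Every 24 m library lay below every 3 m library for 6 of the 32, or 18.8%, beside 5.41% of all tested genes. The first 3 were *Manf*, *Syvn1* and *Ppp1r15a*, and the other 6 were *Hsp90b1*, *Canx*, *Dnajc3*, *Sdf2l1*, *Derl1* and *Asns*. Without 3 m replicate 2 these counts were 3 and 11, and 14.9% and 11.4% of all tested genes then lay apart in the 2 directions. They were 3 and 6 without 24 m replicate 1 (12.7% and 7.1% of all tested genes), 3 and 9 without 24 m replicate 2 (13.5% and 7.26%) and 8 and 7 without 24 m replicate 3 (17.2% and 9.81%). Of the other 3 m libraries, leaving out replicate 1 gave 5 and 9 (17.8% and 10.6%) and leaving out replicate 3 gave 6 and 9 (21.5% and 13.1%).

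**Figure D2:**
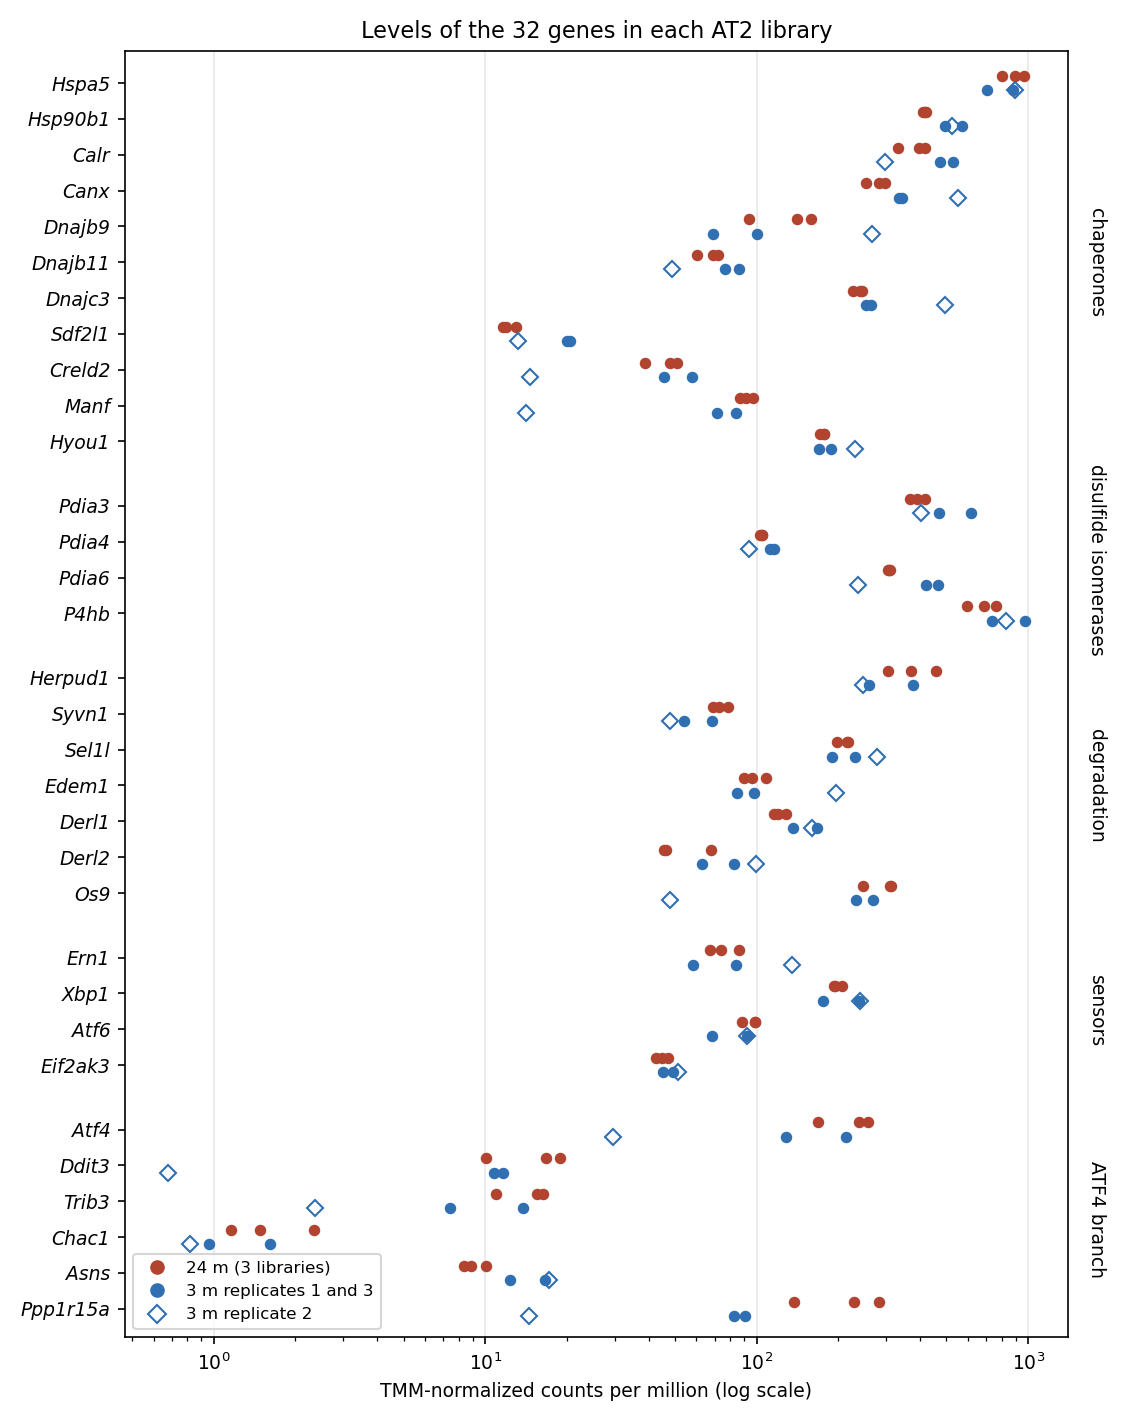
Level of each of the 32 genes in each library, in TMM-normalized CPM on a logarithmic x axis, grouped by role, with the 24 m libraries (red) drawn above the 3 m libraries (blue, 3 m replicate 2 as an open diamond). *Hspa5*, *P4hb* and *Hsp90b1* are among the most counted, and 3 m replicate 2 lies far to the left for *Ddit3*, *Ppp1r15a*, *Atf4*, *Manf*, *Os9*, *Trib3* and *Creld2*.

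Among the chaperones, *Hspa5* encodes BiP, the Hsp70 of the ER that also holds the sensors inactive. It had 962, 891 and 804 CPM in the 24 m libraries, against 881, 897 and 702 CPM in the 3 m libraries. The ages overlapped, with 24 m replicate 1 the highest and 3 m replicate 3 the lowest library. Its log2 fold change was 0.10 ± 0.22 (SE, edgeR, n = 3 libraries per age, adjusted p = 0.940).

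*Hsp90b1* encodes GRP94, the Hsp90 of the ER. It was at 418, 422 and 408 CPM in the 24 m libraries, against 573, 523 and 495 CPM in the 3 m libraries. The 24 m libraries were tightly grouped and all lay below the lowest 3 m library. The means were 416 ± 7.22 CPM in 24 m cells and 530.2 ± 39.2 CPM in 3 m cells (SD, n = 3 each), a log2 fold change of -0.35 ± 0.21 that did not pass edgeR's test (adjusted p = 0.828). It was -0.36 ± 0.16 without 3 m replicate 2, but -0.043 ± 0.28 with offsets that take out each library's trend with the GC content of genes.

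Calnexin (*Canx*) and calreticulin (*Calr*) are the lectin chaperones that hold newly made glycoproteins. *Canx* had 253, 282 and 296 CPM in the 24 m libraries, against 333, 554 and 343 CPM in the 3 m libraries, so that the ages did not overlap and 3 m replicate 2 was far above all others. Its log2 fold change was -0.56 ± 0.27 with all libraries (edgeR, adjusted p = 0.828) and -0.28 ± 0.16 without that library, and it was -0.16 ± 0.18 with the GC offsets. *Calr* had 416, 395 and 331 CPM in the 24 m libraries, against 528, 297 and 475 CPM in the 3 m libraries. Here 3 m replicate 2 was the lowest of all 6, and the other 3 m libraries lay above every 24 m library.

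*Dnajc3* encodes p58IPK, an ER co-chaperone of BiP also known to inhibit PERK. It had 241, 226 and 244 CPM in the 24 m libraries, against 253, 492 and 263 CPM in the 3 m libraries. The ages did not overlap, but the gap between the highest 24 m and the lowest 3 m library was small, and the log2 fold change of -0.50 ± 0.30 became -0.12 ± 0.16 without 3 m replicate 2 and -0.13 ± 0.16 with the GC offsets. *Sdf2l1*, which encodes a partner of the BiP cycle, had 11.6, 13.0 and 11.9 CPM in the 24 m libraries, against 20.03, 13.25 and 20.44 CPM in the 3 m libraries. It too had ages apart, by the narrowest of margins at 3 m replicate 2, and its log2 fold change was -0.56 ± 0.31 with all libraries and -0.73 ± 0.23 without that one (edgeR, adjusted p = 0.828 and 0.266). With the GC offsets the estimate was -0.85 ± 0.27.

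*Manf* encodes a small secreted protein that binds BiP and is induced by ER stress. It had 91.5, 97.2 and 86.8 CPM in the 24 m libraries, against 71.7, 14.1 and 84.2 CPM in the 3 m libraries. All 24 m libraries lay above all 3 m libraries, with 3 m replicate 2 at a small part of the level of the others. The log2 fold change was 0.70 ± 0.54 (edgeR, adjusted p = 0.852) and 0.24 ± 0.17 without that library. In the GENCODE annotation 4.14% of the exon bases of *Manf* are shared with *Dcaf1* on the other strand, and the strand setting of the counting is not given in the sources used here. *Hsp90b1* shares 10.3% of its exon bases with *1810014B01Rik*, and *Eif2ak3* 8.05% with *Gm43292*, both on the opposite strand. Those partners had mean counts of 121 and 16.8, against 1226 for *Dcaf1*.

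The other chaperones had ages that overlapped. *Dnajb9* encodes ERdj4, a J-domain partner of BiP and a target of spliced XBP1. It had 141, 158 and 93.7 CPM in the 24 m libraries, against 100.1, 266 and 69.2 CPM in the 3 m libraries. 3 m replicate 2 was the highest of all and the other 3 m libraries were low, so the sign of its log2 fold change turned with that library, -0.15 ± 0.48 with it and 0.63 ± 0.25 without it. *Creld2* turned the other way, 0.22 ± 0.45 with that library and -0.17 ± 0.20 without it. *Dnajb11* and *Hyou1* had log2 fold changes of -0.07 and -0.16, and of -0.27 and -0.03 without it. With the GC offsets they were -0.13 and -0.38.

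The disulfide isomerases form and exchange the disulfide bonds of secreted proteins. All 4 had estimates below 0, and none had ages apart with all libraries. *P4hb*, which encodes PDI itself, had 686, 763 and 596 CPM in the 24 m libraries, against 973, 825 and 735 CPM in the 3 m libraries. The ages overlapped only in that the highest 24 m library exceeded the lowest 3 m library. Its log2 fold change was -0.31 ± 0.23, or -0.57 ± 0.23 with the GC offsets. *Pdia3* encodes ERp57, which works with calnexin and calreticulin, and had the lowest estimate of the group. It was at 391, 418 and 368 CPM in the 24 m libraries, against 613, 404 and 469.7 CPM in the 3 m libraries, a log2 fold change of -0.34 ± 0.24. The ages overlapped at 3 m replicate 2, the lowest of the 3 m libraries.

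*Pdia6* encodes P5, an isomerase that acts with BiP. It had 307, 304 and 309.8 CPM in the 24 m libraries, against 465, 237 and 422 CPM in the 3 m libraries. The 24 m libraries were nearly equal, and 3 m replicate 2 lay below them while the other 3 m libraries lay above. It had a log2 fold change of -0.29 ± 0.29 with all libraries. Without 3 m replicate 2 it was -0.53 ± 0.16, with an adjusted p of 0.239 by edgeR and of 0.0144 by DESeq2, at a fold below the limit of 2. DESeq2 without that library and without the fold limit called 0.265% of all genes lower at 24 m, and *Pdia6* was the only 1 of the 32 among them. *Pdia4*, an isomerase known to be induced by ER stress, had the highest estimate of the group. It was at 105, 103 and 105 CPM in the 24 m libraries, against 112, 93.6 and 116 CPM in the 3 m libraries, so the ages overlapped, and its log2 fold change was -0.04 ± 0.22.

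Summed over the 15 chaperones and isomerases, the level was 4319, 4343 and 3952 CPM in the 24 m libraries, against 5236, 4908 and 4504 CPM in the 3 m libraries. Every 24 m library lay below every 3 m library, also when libraries were scaled by size factors or by their totals. The means were 4204 ± 219 CPM in 24 m cells and 4883 ± 367 CPM in 3 m cells (SD, n = 3 each). Of the 15 genes 12 had estimates below 0, or 10 when scaled by library totals. With the TMM scaling 6877 of all 14899 tested genes had estimates below 0. For either role alone the ages overlapped under all 3 scalings: the 11 chaperones summed to 2573 to 2831 CPM in 24 m cells and 2762 to 3349 CPM in 3 m cells, and the 4 isomerases to 1379 to 1588 CPM in 24 m cells and 1559 to 2163 CPM in 3 m cells. Sums had been planned for each role alone, and joining the chaperones with the isomerases was an addition to that plan. The sums are descriptions of chosen groups and were not tested.

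ER-associated degradation extracts misfolded proteins through a membrane complex built around the ubiquitin ligase HRD1. *Syvn1*, which encodes HRD1, had 78.1, 69.2 and 72.7 CPM in the 24 m libraries, against 68.3, 47.8 and 53.8 CPM in the 3 m libraries. Every 24 m library lay above every 3 m library, the closest pair differing by little, and the log2 fold change was 0.37 ± 0.23 (edgeR, adjusted p = 0.830), which became 0.045 ± 0.22 with the GC offsets. *Sel1l*, the adaptor of HRD1, had a log2 fold change of -0.14 ± 0.23 with all libraries and 0.006 ± 0.17 without 3 m replicate 2.

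*Derl1* and *Derl2* encode derlins, membrane proteins of the extraction channel. *Derl1* had 119.8, 128 and 116 CPM in the 24 m libraries, against 167, 160.2 and 136 CPM in the 3 m libraries. The ages did not overlap, and 3 m replicate 2 lay between its fellows. *Derl2* had the lowest estimate of the group, at 45.6, 46.2 and 67.9 CPM in the 24 m libraries, against 82.3, 99.4 and 62.8 CPM in the 3 m libraries. The ages overlapped at 24 m replicate 3, the highest of the 24 m libraries. The log2 fold changes were -0.35 ± 0.22 for *Derl1* and -0.61 ± 0.28 for *Derl2* (edgeR, adjusted p = 0.830 and 0.828). With the GC offsets they were -0.37 ± 0.17 and -0.30 ± 0.23.

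*Os9* encodes a lectin that delivers glycoproteins to HRD1, and its estimate was the highest of the degradation genes. It had 312, 309 and 246 CPM in the 24 m libraries, against 232, 47.9 and 268 CPM in the 3 m libraries. 3 m replicate 2 was far below all others, and the rest of the ages overlapped. Its estimate was 0.66 ± 0.53 with that library and 0.21 ± 0.18 without it. *Herpud1*, a stress-induced scaffold of the complex, was at 0.36 ± 0.27, and *Edem1*, which trims mannose from misfolded glycoproteins, was at -0.36 ± 0.34 with all libraries and 0.10 ± 0.18 without 3 m replicate 2.

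For the sensor genes the ages overlapped throughout. *Ern1* had 67.3, 73.9 and 86.0 CPM in the 24 m libraries, against 58.4, 135 and 83.9 CPM in the 3 m libraries, and *Xbp1*, the mRNA it splices, had 206, 193 and 194 CPM in the 24 m libraries, against 239, 241 and 175 CPM in the 3 m libraries. Each 24 m range lay inside the 3 m range. *Atf6* had 98.6, 98.4 and 88.4 CPM in the 24 m libraries, against 68.4, 92.0 and 92.5 CPM in the 3 m libraries. *Eif2ak3*, which encodes PERK, had 44.6, 47.1 and 42.6 CPM in the 24 m libraries, against 45.3, 51.5 and 49.1 CPM in the 3 m libraries. *Ern1* in 3 m replicate 2 lay far above every 24 m library, and *Atf6* in 3 m replicate 1 lay below every 24 m library. The log2 fold changes were -0.29 ± 0.32 for *Ern1*, -0.14 ± 0.23 for *Xbp1*, 0.17 ± 0.23 for *Atf6* and -0.12 ± 0.22 for *Eif2ak3*, with edgeR's adjusted p between 0.882 and 0.928. Without 3 m replicate 2 that of *Ern1* turned to 0.09 ± 0.21 and that of *Xbp1* was -0.06 ± 0.18. With the GC offsets the estimates of *Ern1*, *Xbp1*, *Atf6* and *Eif2ak3* were -0.40 ± 0.33, -0.39 ± 0.25, 0.32 ± 0.20 and -0.25 ± 0.20. The 4 genes summed to 411 to 416 CPM in 24 m cells and 401 to 519 CPM in 3 m cells.

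The ATF4 branch held the largest estimates of the 32 genes, in both directions. *Ppp1r15a* encodes GADD34, the phosphatase subunit that removes phosphate from eIF2α and so restores translation. It had 229, 283 and 137 CPM in the 24 m libraries, against 90.7, 14.5 and 82.6 CPM in the 3 m libraries. Every 24 m library lay above every 3 m library, 24 m replicate 3 was the lowest of its age, and 3 m replicate 2 was far below the rest. The means were 216 ± 74.0 CPM in 24 m cells and 62.6 ± 41.8 CPM in 3 m cells (SD, n = 3 each), and the fitted level was 3.45-fold higher. This log2 fold change of 1.79 ± 0.61 passed neither edgeR's test (adjusted p = 0.783) nor that of DESeq2 (adjusted p = 0.0922).

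The call for *Ppp1r15a* depended on how the data were handled. With no filter on low counts, edgeR called it (adjusted p = 0.0045), together with 0.739% of all genes higher at 24 m. Without 3 m replicate 2 its log2 fold change was 1.32 ± 0.27, with an adjusted p of 0.0700 by edgeR, which then called 0.506% of all genes higher, and of 3.91e-05 by DESeq2, which then called 2.66% of all genes higher. No other gene of the 32 was called at a fold above 2 under any of these settings.

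*Atf4* encodes the transcription factor of the branch. It had 257, 239 and 168 CPM in the 24 m libraries, against 213, 29.6 and 128 CPM in the 3 m libraries. 24 m replicate 3 lay below 3 m replicate 1, so the ages overlapped, and 3 m replicate 2 was far below all. The log2 fold change was 0.84 ± 0.58 (edgeR, adjusted p = 0.835) and 0.38 ± 0.25 without that library. ATF4 is controlled chiefly through translation of its mRNA, which these counts do not measure.

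*Ddit3* encodes CHOP, a transcription factor that promotes cell death when ER stress persists. It had 16.7, 18.8 and 10.1 CPM in the 24 m libraries, against 10.8, 0.677 and 11.6 CPM in the 3 m libraries. The value in 3 m replicate 2 rested on 19 counts, the lowest count of any of the 32 genes in any library, and 24 m replicate 3 lay below the other 3 m libraries. The log2 fold change was 0.98 ± 0.82 with that library and 0.44 ± 0.31 without it (edgeR, adjusted p = 0.857 and 0.713). *Ddit3* shares 3.97% of its exon bases with *Mars* on the opposite strand, and 6.13% with another entry named *Ddit3* on the same strand.

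*Trib3*, a pseudokinase gene induced by ATF4 and CHOP, had 15.5, 16.3 and 10.9 CPM in the 24 m libraries, against 7.43, 2.35 and 13.8 CPM in the 3 m libraries. The ages overlapped at 3 m replicate 3, and the log2 fold change was 0.86 ± 0.59 with all libraries and 0.42 ± 0.33 without 3 m replicate 2. *Chac1*, which degrades glutathione, was near the limit of what these libraries measure, at 1.16 to 2.35 CPM in 24 m cells and 0.819 to 1.61 CPM in 3 m cells, with a log2 fold change of 0.55 ± 0.93, or 0.37 ± 0.84 without 3 m replicate 2.

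*Asns* encodes asparagine synthetase, a classical ATF4 target, and it differed from the rest of the branch. It had 8.34, 10.1 and 8.89 CPM in the 24 m libraries, against 12.4, 17.2 and 16.6 CPM in the 3 m libraries. Every 24 m library lay below every 3 m library. The means were 9.10 ± 0.876 CPM in 24 m cells and 15.4 ± 2.62 CPM in 3 m cells (SD, n = 3 each). Its estimate was -0.76 ± 0.32 (edgeR, adjusted p = 0.828), and -0.67 ± 0.27 without 3 m replicate 2. Its promoter carried the CARE letters as those of *Trib3* and *Chac1* did, whose estimates lay above 0.

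**Figure D3:**
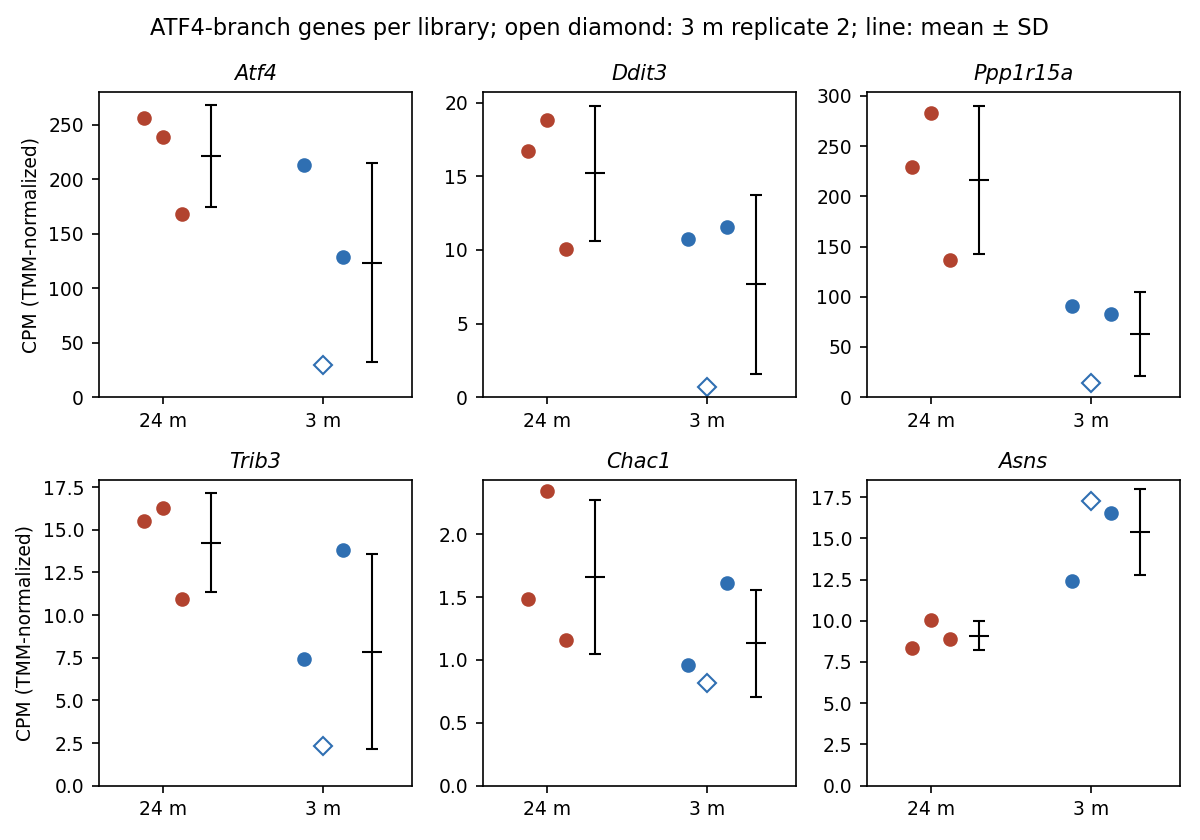
Levels of the 6 genes of the ATF4 branch in each library (y axis: TMM-normalized CPM, linear, from 0). Points are libraries at 24 m (left) and 3 m (right), the open diamond is 3 m replicate 2, and the line gives the mean ± SD of 3 libraries. For *Ppp1r15a* all 24 m libraries lie above all 3 m libraries, for *Asns* all lie below, and 24 m replicate 3 is the lowest of its age for *Atf4*, *Ddit3*, *Trib3*, *Chac1* and *Ppp1r15a*.

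The summed level of the 6 genes was 528, 569.5 and 336 CPM in the 24 m libraries, against 335, 65.2 and 254 CPM in the 3 m libraries. The ages were apart by a margin that closed when libraries were scaled by size factors. Scaled by library totals they stayed apart, with 349 to 582 CPM in 24 m cells and 60.3 to 316 CPM in 3 m cells. In sum, the same libraries were high and low for genes that respond to tissue digestion and heat shock, a list of 14 genes among which are *Fos*, *Jun*, *Nr4a1*, *Hspa1a* and *Atf3*. That list summed to 16644, 16927 and 7803 CPM in the 24 m libraries, against 6220 (replicate 1), 638 (replicate 2) and 3349 (replicate 3) CPM in the 3 m libraries. For 7 of the 14, *Atf3* and *Hspa1b* among them, the 6 libraries stood in the same order as for *Ppp1r15a*, beside 0.987% of all tested genes. No other gene of the ATF4 branch had this order, and of 38 other ATF4 targets only *Atf3* and *Slc3a2* did. Of the 14 digestion and heat shock genes 13 were lowest in 3 m replicate 2, as were 5 of the 6 branch genes, beside 41.5% of all tested genes. All 14 had estimates above 0, with a median log2 fold change of 2.07. For 11 of them every 24 m library lay above every 3 m library, beside 9.74% of all tested genes. The cells had been released from lung tissue by enzymes before sorting, and the part of that step in the values of *Ppp1r15a* was not tested.

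**Figure D4:**
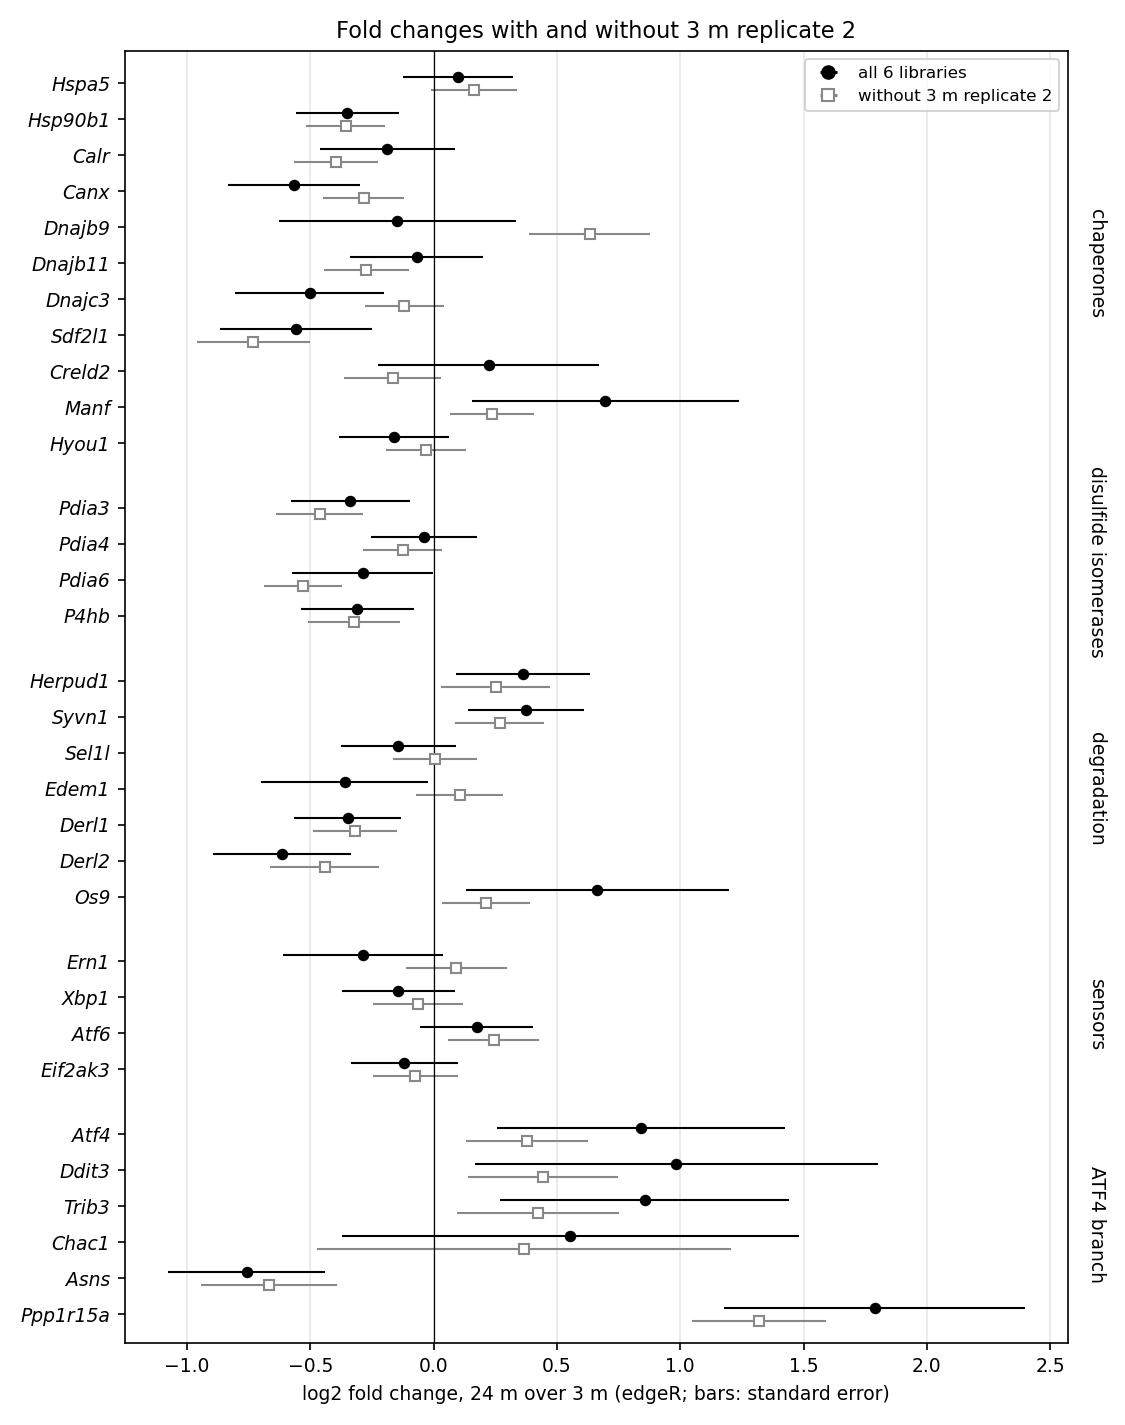
Log2 fold change of each gene, 24 m over 3 m (x axis; bars: standard error, edgeR), with all 6 libraries (black circles, upper) and without 3 m replicate 2 (open squares, lower), grouped by role. The estimates of *Manf*, *Os9*, *Atf4*, *Ddit3* and *Trib3* move toward 0 when the library is left out, *Dnajb9* is at -0.15 with it and at 0.63 without it, and *Ppp1r15a* stays the highest.

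3 m replicate 2 was the lowest library for 14 of the 32 genes, or 43.8%, beside 41.5% of all tested genes, and the highest for 11, or 34.4%, beside 30.8%. It was more than 2-fold below the mean log2 level of the other 3 m libraries for 7 of the 32 genes and more than 2-fold above it for 2, *Dnajb9* and *Edem1*, or 21.9% and 6.25%, beside 26.6% and 16.1% of all tested genes. The 7 were *Ddit3*, *Ppp1r15a*, *Atf4*, *Manf*, *Os9*, *Trib3* and *Creld2*. Across genes this difference went with base composition: Spearman's rho with the GC content of the longest transcript was -0.56 over the 32 genes and -0.51 over 14852 tested genes, and with transcript length it was 0.66 and 0.29. These are descriptions across genes of the same libraries, and genes are not replicates. Compared with genes of like GC content, 8 of the 32 lay below the lower quartile, these 7 and *Pdia6*, and 5 lay above the upper quartile, *Dnajb9*, *Edem1*, *Ern1*, *Hyou1* and *Xbp1*. By definition a fixed share of all genes lies beyond each quartile, and the 32 genes exceeded that share in neither direction. The estimates of *Ppp1r15a*, *Atf4*, *Ddit3* and *Trib3* with the GC offsets were 1.66 ± 0.45, 0.71 ± 0.44, 1.01 ± 0.85 and 0.67 ± 0.43. Those of *Manf*, *Os9* and *Creld2* were 0.65 ± 0.47, 0.53 ± 0.36 and 0.08 ± 0.32. Those of *Chac1* and *Asns* were 0.23 ± 0.92 and -0.69 ± 0.30.

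**Figure D5:**
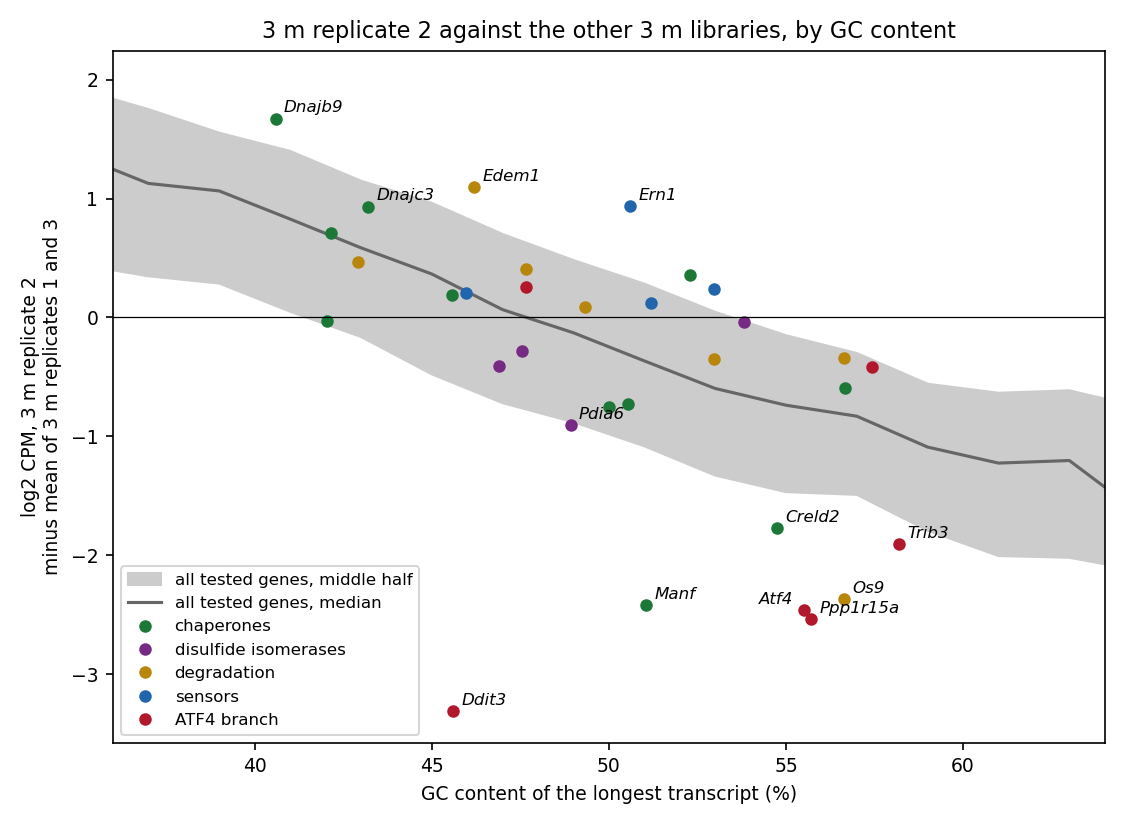
Log2 CPM of 3 m replicate 2 minus the mean log2 CPM of 3 m replicates 1 and 3 (y axis) against GC content of the longest transcript in percent (x axis). Coloured points are the 32 genes by role, the line is the median of all tested genes in bins of GC content, and the band runs between their quartiles. The band slopes downward, *Dnajb9* lies at the upper left at 1.67, and *Ddit3* lies lowest at -3.31.

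Levels between genes were compared on the deposited FPKM, which are divided by gene length. *P4hb* came first at both ages, with 245 ± 27.8 FPKM at 24 m and 286 ± 30.2 FPKM at 3 m (SD, n = 3 each), followed by *Hspa5* with 215 ± 18.2 FPKM at 24 m and 189 ± 12.7 FPKM at 3 m. *Chac1* came last, with 1.04 ± 0.375 FPKM at 24 m and 0.684 ± 0.307 FPKM at 3 m. The sensors *Atf6*, *Ern1* and *Eif2ak3* all lay between 7.64 and 10.9 FPKM in mean level at both ages, below each of the 11 chaperones. Of the 31 pairs of neighbours in the order, 24 at 24 m and 29 at 3 m had libraries that overlapped, so most neighbouring ranks were not separated. The largest shift in order was that of *Ppp1r15a*, which was 10 in the order at 24 m, with 75.5 ± 25.3 FPKM, and 20 at 3 m, with 21.1 ± 14.3 FPKM.

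Other genes of the pathway, listed by their known roles, were compared in the same fit, in which edgeR called none of them. Of all 14899 tested genes 6877 had estimates below 0 and 8022 above 0. Of 33 other ER folding genes, 20 had estimates below 0, with a median log2 fold change of -0.09, and 1 (3.03%) and 2 (6.06%) had ages apart with 24 m higher and lower, beside 9.74% and 5.41% of all tested genes. *Dnajc10*, which encodes the disulfide reductase ERdj5, had 75.1, 69.5 and 77.0 CPM in the 24 m libraries, against 105, 151 and 85.8 CPM in the 3 m libraries, and its ages did not overlap. Of 27 other genes of ER-associated degradation, 16 were below 0 (median -0.07), and 1 (3.70%) and 4 (14.8%) had ages apart with 24 m higher and lower, *Erlec1* among the lower. Of 19 other regulators of the response that were tested, of 21 in the list, 10 were above 0 (median 0.07). Only *Ppp1r15b*, the constitutive counterpart of *Ppp1r15a*, had ages apart, or 5.26% with 24 m higher, beside 9.74% of all tested genes. It was at 102, 94.6 and 92.9 CPM in the 24 m libraries, against 83.2, 85.5 and 78.6 CPM in the 3 m libraries, a log2 fold change of 0.23 ± 0.21. *Ern2* of that list had too few counts to be tested. It had 0.979, 0.771 and 0.119 CPM in the 24 m libraries and 0 in every 3 m library.

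Of 38 other ATF4 targets tested, 26 were above 0 (median 0.32), and 7 (18.4%) and 1 (2.63%) had ages apart with 24 m higher and lower, beside 9.74% and 5.41% of all tested genes. Their median was 0.18 without 3 m replicate 2. *Atf3*, a stress-induced transcription factor that also belongs to the list of digestion genes, had 1117, 1185 and 335 CPM in the 24 m libraries, against 237, 9.22 and 124 CPM in the 3 m libraries, with all 24 m libraries above all 3 m libraries. *Ddit4*, an inhibitor of mTORC1 signaling, had 111, 109 and 62.8 CPM in the 24 m libraries, against 48.8, 5.48 and 43.0 CPM in the 3 m libraries, and its ages were apart in the same direction. Their log2 fold changes were 2.83 ± 0.97 and 1.54 ± 0.67 (edgeR, adjusted p = 0.783 and 0.828). With no filter on low counts edgeR called both (adjusted p = 0.00027 and 0.036), together with 0.739% of all genes higher at 24 m. DESeq2 called both without 3 m replicate 2 (adjusted p = 0.0243 and 0.00345), when it called 2.66% of all genes higher. *Slc7a11*, a cystine transporter gene, was called without that library by edgeR (adjusted p = 0.0260) and DESeq2 (adjusted p = 8.44e-06). In that setting edgeR called 0.506% of all genes higher. *Slc7a11* had 2.84, 6.70 and 1.52 CPM in the 24 m libraries, against 0, 2.42 and 0 CPM in the 3 m libraries, so the library left out was the 1 at 3 m in which it was detected.

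The machinery by which proteins enter the ER and receive their first glycans had the lowest median of these lists. Of 25 genes of the translocon, signal peptidase and oligosaccharyltransferase, 19 were below 0, with a median log2 fold change of -0.37, and 8, or 32%, had every 24 m library below every 3 m library, beside 5.41% of all tested genes. None had ages apart in the other direction. *Ostc*, a subunit of the oligosaccharyltransferase, had 41.0, 42.4 and 49.4 CPM in the 24 m libraries, against 76.6, 114 and 55.8 CPM in the 3 m libraries. *Tram1*, a partner of the translocon, had 132, 134 and 141 CPM in the 24 m libraries, against 232, 489 and 150.3 CPM in the 3 m libraries. Each had its highest value in 3 m replicate 2, and none of the 25 passed the test (edgeR, lowest adjusted p = 0.776). Without that library 12 of the 25 had all 24 m libraries below all 3 m libraries, beside 11.4% of all tested genes. The median was then -0.21, and 19 were below 0.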

How the data were processed

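RNA of sorted AT2 cells was sequenced as paired reads of 150 bases. The deposited counts per gene were made by the authors, whose processing notes name HISAT2, featureCounts, DESeq2 and GRCm39. Versions, annotation release, strand setting and treatment of reads shared between genes are not given in the sources used here. The deposited FPKM are the authors' counts per length and library total and were used only to compare levels between genes.

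Counts were analysed with R 4.3.3 and edgeR 4.0.16: filterByExpr kept 14899 of 24224 genes, libraries were scaled by TMM, and ages were compared by the quasi-likelihood test with Benjamini-Hochberg adjustment over all genes tested. Calls required an adjusted p under 0.05 together with a change of more than 1 on the log2 scale, in either direction. DESeq2 1.42.0, limma-voom (limma 3.58.1), other scalings and filters, a replicate block and each library left out were tried. Fits without 3 m replicate 2 in DESeq2 or with no fold limit, and with GC offsets, were added after the data were seen. Levels between libraries are TMM-normalized CPM. Ages are called apart where all libraries of 1 age exceed all of the other. The tests were tried on simulated counts. GC content and length are those of the longest GENCODE vM21 transcript. The 32 genes and all lists were chosen with earlier results of these data known.

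Values per library were written out for genes that any tool called, genes with ages apart, *Hspa5*, *Xbp1*, *Atf4*, *Ddit3*, the sensors and the highest and lowest estimates of each role. *Calr*, *Dnajb9*, *P4hb* and *Trib3* were added after their values were seen. From the other lists, called genes and up to 4 with the smallest p were eligible, and marker genes were named outside this rule. Clgn, Fgf21 and Tnfrsf17 of the lists were not analysed here.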

Additional observations from a re-analysis of the deposited data

How the results depend on the processing

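No gene of the 32 was called with all 6 libraries by edgeR, DESeq2 or limma-voom, under either other scaling, with the stricter filter, with no fold limit or with GC offsets, and none was called by edgeR with any 1 library left out. With all libraries and no filter 1 gene was called higher, *Ppp1r15a*. DESeq2 without 3 m replicate 2 called 1 higher, with or without the fold limit, and 1 lower with no fold limit, *Pdia6*. The median log2 fold change of the 32 genes, -0.14, was -0.0443 with library totals, where that of all genes was 0.13, and ranged between -0.142 and -0.0465 with a library left out, the value nearest 0 being without 3 m replicate 2. Genes with every 24 m library higher, 3 with all libraries, numbered 3 to 8 with a library left out: 8 without 24 m replicate 3, 5 without 3 m replicate 1 and 6 without 3 m replicate 3, when 17.2%, 17.8% and 21.5% of all tested genes were apart that way. Genes with every 24 m library lower, 6 with all libraries, numbered 6 to 11, with 11 without 3 m replicate 2, when 11.4% of all tested genes were.

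Of the 32 genes, 25 kept the sign of their estimate under 10 settings (other scalings, the replicate block, GC offsets and each library left out). *Dnajb9* turned to 0.0662 with the replicate block and 0.55 with GC offsets, and with a library left out it ranged from -0.476 to 0.63. *Dnajb11* was 0.0062 and *Pdia4* 0.0364 with library totals, and *Pdia4* 0.0137 with GC offsets. With a library left out *Dnajb11* ranged from -0.273 to 0.105, *Pdia4* from -0.126 to 0.0263, *Creld2* from -0.166 to 0.611, *Sel1l* from -0.267 to 0.00599, *Edem1* from -0.573 to 0.105 and *Ern1* from -0.522 to 0.0924. The cause was not tested.

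Deviations of same-numbered libraries from their age means correlated at 0.01, -0.04 and -0.08 over 14899 genes. Deviations from a mean of so few libraries depend on each other, so these values cannot decide whether the numbers in the titles mark shared samples. The replicate block called 0 of the 32 genes, and their median was -0.12 with it. The lowest count behind a value of the 32 genes was 19, for *Ddit3* in 3 m replicate 2.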
